A study of Homo sapiens with 47 samples.

Results

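The replication-dependent H2A and H2B genes encode the histones that pair as dimers in the nucleosome. They were taken as the genes of the deposited ELL table of replication-dependent histone (RDH) genes whose name holds HIST, a digit, and H2A or H2B, which gave 49 of the 90 RDH genes and 49 of the 58395 genes counted by RNA-seq. They comprised 17 coding H2A genes, 18 coding H2B genes, 6 H2A pseudogenes and 8 H2B pseudogenes. By name, 36 belonged to HIST1, 10 to HIST2 and 3 to HIST3. The HIST1 cluster lies on chromosome 6, and HIST2 and HIST3 lie on chromosome 1; the pseudogenes HIST1H2BPS3 and HIST1H2APS6 were placed on chromosome 13, and HIST2H2BA and HIST2H2BB on chromosome 1 outside the HIST2 cluster.

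The study asked how an elongation complex and Mediator act at histone genes in HEK293T cells, a human embryonic kidney line. Total RNA freed of ribosomal RNA was sequenced in 3 libraries of wild-type cells and 3 of an EAF1-mutant line, and ChIP-seq of the elongation factor ELL covered 2 replicates and 1 input of wild-type cells. The EAF1-mutant line is 1 clone made by CRISPR knock-in, with both EAF1 alleles altered so that a short stretch of the protein was replaced by alanines. Clone and mutation cannot be told apart in these libraries. Totals of the wild-type libraries were 59137210, 52541541 and 55637032 counts; those of the EAF1-mutant line were 57198018, 53369621 and 66611451. Values per library are CPM, which are counts scaled to a common library size after edgeR's TMM adjustment, and a log2 fold change is always EAF1-mutant over wild-type.

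EAF1 itself had 57.5, 58.4 and 56.5 CPM in the wild-type libraries and 19.7, 17.9 and 18.8 in the EAF1-mutant libraries, a log2 fold change of -1.61 (SE 0.05, adjusted p = 2.48e-18 by edgeR's quasi-likelihood test). A substitution leaves this RNA countable, so its level does not check the labels. The paper describes replicates as biological for its experiments in general. The labels do not say whether the libraries came from separate cultures, so the p-values measure only the spread between these libraries, which had a biological coefficient of variation of 4.11%.

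Replication-dependent histone mRNAs are made in S phase, mostly lack introns and a poly(A) tail, and typically end after a conserved stem-loop that is bound by SLBP. Many H2A and H2B genes lie head to head and share the stretch between their starts as a promoter, in which TATA, CCAAT and octamer elements are known. ELL and EAF1 belong to elongation complexes that associate with RNA polymerase II, and Mediator is a coactivator that can recruit them.

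The stem-loop is shown because the processed 3′ end of these mRNAs is known to lie just after it; where transcripts ended was not measured here. All 35 coding genes had 1 stem-loop of 16 bases, with a stem of 6 pairs and a loop of 4 bases, starting 23 to 67 bases after the stop codon in GRCh38. There were 6 different stem-loops. The commonest was found in 25 genes (13 H2A, 12 H2B), and another in 6 genes, of which 5 were H2B. HIST1H2BI, HIST1H2AG, HIST2H2AC and HIST1H2AK each had one of their own. The sites below are printed 5′ to 3′ on the strand of the gene with the stem-loop in capitals, and lie at chr6:27892699-27892724 (- strand), chr6:27146361-27146386 (- strand), chr1:149887386-149887411 (+ strand), chr6:27133510-27133535 (+ strand), chr6:27837880-27837905 (- strand) and chr6:26273387-26273412 (+ strand), in this order.
HIST1H2AM: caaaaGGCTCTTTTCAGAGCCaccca
HIST1H2BK: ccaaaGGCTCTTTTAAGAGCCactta
HIST2H2AC: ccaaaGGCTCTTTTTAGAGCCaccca
HIST1H2AG: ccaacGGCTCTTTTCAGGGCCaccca
HIST1H2AK: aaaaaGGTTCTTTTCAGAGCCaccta
HIST1H2BI: ccaaaGGCTCTTCTAAGAGCCaccca

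In wild-type cells a few genes supplied a large share of the RNA of each class. Levels of different genes are compared per kb of coding sequence, because 13 coding gene models (2 H2A, 11 H2B) are longer than 1 kb, and reads outside the coding sequence are part of the counts of those genes. HIST2H2AA4, HIST2H2AA3 and HIST2H2AC held 49.8% of the H2A total on this scale. HIST2H2BF, HIST1H2BK and HIST2H2BE held 50.4% of the H2B total. Coding length was chosen after seeing the data. Per kb of gene model, as planned, the same 3 H2A genes led with 1202, 1173 and 829 CPM per kb, but the highest H2B genes were HIST1H2BK with 1293, HIST1H2BO with 519.8 and HIST2H2BE with 218 CPM per kb, and HIST2H2BF, with a model of 29685 bp, had 19.6. Testis-type HIST1H2AA and HIST1H2BA were at or near 0.

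HIST2H2AA4 (ENSG00000272196, chr1:149851061-149851624, + strand) had 722, 612 and 700.3 CPM in the wild-type libraries and 287, 292 and 258 in the EAF1-mutant libraries, and a wild-type level of 1738 ± 149 CPM per kb (SD, n = 3). Its near-identical copy HIST2H2AA3 (ENSG00000203812, chr1:149842188-149842736, - strand) had 689, 576 and 668 CPM in the wild-type libraries and 272, 279 and 247 in the EAF1-mutant libraries, and a wild-type level of 1651 ± 154 CPM per kb (SD, n = 3). All windows of 100 bases of their coding sequences were shared, so counts of either copy are uncertain, and their levels differed by less than their SD. HIST2H2AC (ENSG00000184260, chr1:149886975-149887364, + strand) came next with 339, 298 and 332 CPM in the wild-type libraries and 139, 136 and 125 in the EAF1-mutant libraries, and a wild-type level of 835 ± 56.6 CPM per kb (SD, n = 3). All 3 H2A genes were lower in every EAF1-mutant library than in any wild-type library.

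HIST2H2BF (ENSG00000203814, chr1:149782689-149812373, - strand) had 621, 520.0 and 608 CPM in the wild-type libraries and 232, 237 and 234 in the EAF1-mutant libraries, and 1542 ± 145 CPM per kb (SD, n = 3) in wild-type cells. HIST1H2BK (ENSG00000197903, chr6:27146418-27146798, - strand) had 514, 452 and 512 CPM in the wild-type libraries and 339, 346 and 344 in the EAF1-mutant libraries, and 1303 ± 93.0 CPM per kb (SD, n = 3). HIST2H2BE (ENSG00000184678, chr1:149884459-149886652, - strand) had 505, 426 and 507 CPM in the wild-type libraries and 191, 196 and 194 in the EAF1-mutant libraries, and 1268 ± 122 CPM per kb (SD, n = 3). Wild-type and EAF1-mutant libraries did not overlap for any of the 3, and the levels of HIST1H2BK and HIST2H2BE differed by less than their SD. Some sequence of HIST2H2BF and HIST2H2BE is shared, with 37.3% and 19.7% of their windows found in another RDH gene. At the other end, HIST1H2BI, HIST1H2BM and HIST1H2BB were under 1 CPM in every library.

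**Figure D1:**
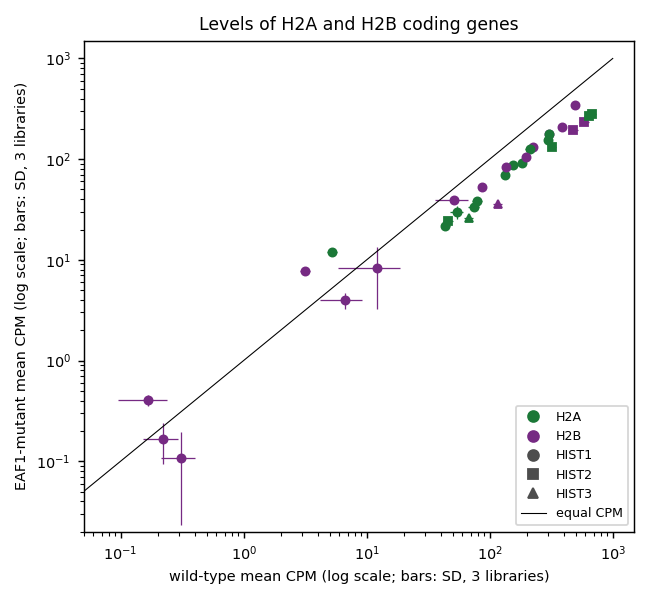
Mean CPM of coding H2A and H2B genes in wild-type (x axis) and EAF1-mutant cells (y axis), both on log scales, with bars for the SD of 3 libraries. Most genes lie under the line of equal CPM, while HIST1H2AE, HIST1H2BG and HIST1H2BB lie above it; HIST1H2AA and HIST1H2BA are not drawn.

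Most H2A and H2B genes were lower in EAF1-mutant cells. Of the 49 members, 39 passed edgeR's filter on low counts and were tested; HIST1H2AA, HIST1H2BA and 8 pseudogenes did not pass. A gene passed with an adjusted p below 0.01 when its log2 fold change also exceeded 0.5 in either direction; by this rule 31 of the 39 fell, 4 rose and 4 did neither, while 9.36% of all 28025 tested genes fell and 11.0% rose. For 29 of the 39 tested members all EAF1-mutant libraries were below all wild-type libraries, which held for 28.1% of all tested genes. For 5 of the 39 all EAF1-mutant libraries were above, which held for 29.2%. Fewer cells in S phase and less RNA per cell cannot be told apart in these bulk samples.

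Among coding H2A genes 15 of 16 fell and HIST1H2AE rose. Of 17 tested coding H2B genes, 12 fell, HIST1H2BG and HIST1H2BB rose, and HIST1H2BF, HIST1H2BH and HIST1H2BM did neither. The median log2 fold change was -0.97 (quartiles -1.18 and -0.84) for H2A and -0.75 (quartiles -0.92 and -0.52) for H2B, beside 0.01 for all tested genes. The H2A median was thus lower by a log2 difference of -0.22, or of -0.40 with gene models of at most 1 kb, which was not tested. The short H2B models tested were 6, and among them HIST1H2BB, HIST1H2BI and HIST1H2BM were under 1 CPM in every library. For coding genes at a mean of 10 CPM or more the medians were -1.01 for H2A and -0.77 for H2B. With no filter on low counts the medians were -0.98 and -0.73. The other RDH classes had medians of -0.71 for H1, -1.05 for H3 and -0.77 for H4. With library totals alone the median of all tested genes moved to 0.13, and the H2A and H2B medians were then -0.86 and -0.64. By that scaling 1844 of all tested genes fell and 4166 rose, in place of 2624 and 3071, and 10 coding H2B genes fell, without HIST1H2BI and HIST1H2BK.

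Summed over coding genes, H2A RNA was 3495, 3001 and 3405 CPM in wild-type cells and 1613, 1622 and 1484 in EAF1-mutant cells. The EAF1-mutant mean was 47.7% of the wild-type mean. Summed H2B RNA was 3216, 2803 and 3236 CPM in wild-type cells and 1614, 1631 and 1633 in EAF1-mutant cells, or 52.7% of the wild-type mean. In both classes every EAF1-mutant library was below every wild-type library, and the wild-type replicate 2 was the lowest of its group, as it was in all 15 H2A and all 12 H2B coding genes at a mean of 10 CPM or more.

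The ratio of summed H2A to summed H2B was 1.09, 1.07 and 1.05 in wild-type and 0.999, 0.994 and 0.909 in EAF1-mutant libraries. Means were 1.07 ± 0.0173 and 0.968 ± 0.0509 (SD, n = 3). The groups did not overlap, and EAF1-mutant replicate 3 was the lowest library. Gene models of at most 1 kb gave ratios of 3.65 and 2.61, since most H2B RNA came from genes with longer models. By cluster the direction differed. The mean ratio (± SD, n = 3) was 0.809 ± 0.0175 in wild-type and 0.727 ± 0.0314 in EAF1-mutant cells for HIST1, and 0.584 ± 0.00984 in wild-type and 0.728 ± 0.0668 in EAF1-mutant cells for HIST3, lower and higher in every EAF1-mutant library, respectively. For HIST2 it was 1.59 ± 0.0227 in wild-type and 1.64 ± 0.101 in EAF1-mutant cells, and the groups overlapped.

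**Figure D2:**
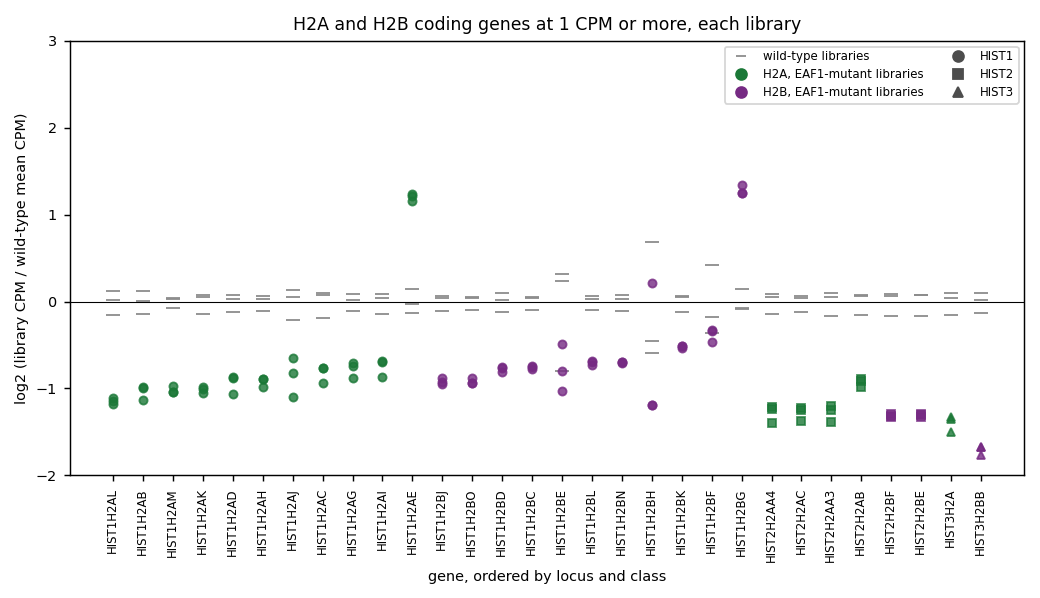
Log2 ratio of each library to the wild-type mean for coding genes at a mean of 1 CPM or more, with 3 grey dashes for wild-type and 3 coloured points for EAF1-mutant libraries per gene. HIST1H2AE and HIST1H2BG stand above 0 in all 3 EAF1-mutant libraries, and the groups of HIST1H2BE, HIST1H2BF and HIST1H2BH overlap.

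HIST1H2AE (ENSG00000277075, chr6:26216975-26217483, + strand) and its head-to-head partner HIST1H2BG (ENSG00000273802, chr6:26215159-26216692, - strand) rose. HIST1H2AE had 5.80, 4.77 and 5.16 CPM in the wild-type libraries and 12.3, 12.2 and 11.7 in the EAF1-mutant libraries, a log2 fold change of 1.20 (SE 0.08, adjusted p = 3.73e-12, edgeR). HIST1H2BG had 3.52, 2.99 and 3.03 CPM in the wild-type libraries and 8.04, 7.55 and 7.53 in the EAF1-mutant libraries, a log2 fold change of 1.27 (SE 0.09, adjusted p = 3.41e-11, edgeR). Both were higher in all 3 EAF1-mutant libraries than in any wild-type library, at levels far under those of most members. HIST1H2BB, named after its values were seen, had 0.159, 0.0989 and 0.243 CPM in the wild-type libraries and 0.437, 0.432 and 0.348 in the EAF1-mutant libraries. Its call was lost with DESeq2 (adjusted p = 0.0356) and without wild-type replicate 1, wild-type replicate 2, EAF1-mutant replicate 1 or EAF1-mutant replicate 2, where edgeR gave adjusted p from 0.0160 to 0.0315.

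HIST1H2BF (ENSG00000277224, chr6:26199520-26200715, + strand) had 45.5, 39.8 and 68.5 CPM in the wild-type libraries and 40.6, 37.0 and 40.8 in the EAF1-mutant libraries. Wild-type replicate 3 stood above the other 5 libraries, and EAF1-mutant replicate 1 and 3 lay above wild-type replicate 2. Its log2 fold change of -0.38 (SE 0.11, adjusted p = 0.00685, edgeR) missed the fold threshold, which it passed at -0.54 without wild-type replicate 2. Without wild-type replicate 3 the value was -0.13 (adjusted p = 0.0737), and DESeq2 gave an adjusted p of 0.252. HIST1H2BH, named after its values were seen, had 8.97, 8.15 and 19.6 CPM in the wild-type libraries and 5.37, 14.2 and 5.37 in the EAF1-mutant libraries. Its groups overlapped, with wild-type replicate 3 and EAF1-mutant replicate 2 above the rest, and without EAF1-mutant replicate 2 it fell by 1.19 on the log2 scale. HIST1H2BE, also named afterwards, had 7.85, 3.84 and 8.35 CPM in the wild-type libraries and 3.27, 3.85 and 4.75 in the EAF1-mutant libraries. It overlapped between groups, and its call was lost with DESeq2 (adjusted p = 0.101) and without wild-type replicate 3 or EAF1-mutant replicate 1.

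HIST1H2BI (ENSG00000278588, chr6:26272976-26273356, + strand) had 0.371, 0.198 and 0.355 CPM in the wild-type libraries and 0.202, 0.0360 and 0.0869 in the EAF1-mutant libraries, so that EAF1-mutant replicate 1 lay above wild-type replicate 2. Its log2 fold change was -1.50 (SE 0.45, adjusted p = 0.00746, edgeR), and the call was lost with DESeq2, with library totals and without any 1 of 4 libraries. HIST1H2BC (ENSG00000180596, chr6:26114873-26123926, - strand) had 233, 211 and 231 CPM in the wild-type libraries and 131, 134 and 134 in the EAF1-mutant libraries, a log2 fold change of -0.76. HIST2H2AB (ENSG00000184270, chr1:149887524-149887916, - strand) had 48.6, 41.4 and 48.3 CPM in the wild-type libraries and 24.9, 24.4 and 23.4 in the EAF1-mutant libraries, a log2 fold change of -0.93. For both, the groups did not overlap. Over 12 other settings, 30 of the 35 called members kept their call; the 5 others were HIST1H2BI, HIST1H2BE, HIST1H2BB, HIST1H2BK and the pseudogene HIST1H2APS5.

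The 3 clusters differed in the size of the change. Among tested coding genes the median log2 fold change was -0.77 for 25 HIST1 genes, -1.28 for 6 HIST2 genes and -1.55 for 2 HIST3 genes. Summed HIST1 RNA was 3590.1, 3164 and 3590.4 CPM in wild-type cells and 2020.4, 2026 and 1976 in EAF1-mutant cells, or 58.2% of the wild-type mean. Summed HIST2 RNA was 2924, 2473 and 2863 CPM in wild-type cells and 1145, 1165 and 1082 in EAF1-mutant cells, or 41.1%. HIST3 summed to 197, 167 and 187 CPM in wild-type cells and 61.1, 62.9 and 60.2 in EAF1-mutant cells, or 33.4%. In each cluster the groups did not overlap. Within HIST1 the median was -0.92 for H2A and -0.70 for H2B, and within HIST2 it was -1.28 for H2A and -1.31 for H2B.

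Genes of other kinds near the clusters had medians in the same order. The 15 tested coding non-histone genes inside HIST1 had a median of -0.04, and 1 fell and 1 rose. The 28 within 1 Mb of HIST2 had a median of -0.29, and 6 fell and 1 rose. The 20 within 1 Mb of HIST3 had a median of -0.34, and 3 fell and 2 rose. Of all 15370 tested coding non-histone genes 10.9% fell and 12.3% rose. HIST2 members were lower than HIST1 members by a log2 difference of -0.51, and of -0.26 once the median of these neighbours was subtracted from each cluster. For HIST3 against HIST1 the differences were -0.78 and -0.48.

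Wider surroundings were chosen after seeing the data. The 527 tested coding genes between HIST2 and HIST3 had a median of -0.31, and 22.2% fell and 5.69% rose, while the 243 within 10 Mb of HIST1 had a median of 0.15, and 2.06% fell and 22.6% rose. With the genes within 2, 5, 10 or 20 Mb of each cluster subtracted, HIST2 differed from HIST1 by -0.20, -0.16, -0.06 and -0.11, and with only members at a mean of 10 CPM or more by -0.15, -0.11, -0.0086 and -0.063 (-0.21 with the planned neighbours), so the size of this difference depended on the window and on the members taken. HIST3 differed from HIST1 by -0.34, -0.30, -0.22 and -0.33 in the same windows with all tested coding members, and by -0.29, -0.25, -0.17 and -0.28 with the smaller set. The median of the members stayed below that of their surroundings in each cluster under every window run, while HIST1H2AE, HIST1H2BG and HIST1H2BB lay above it. The part of the chromosome regions in the differences between clusters was not tested.

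**Figure D3:**
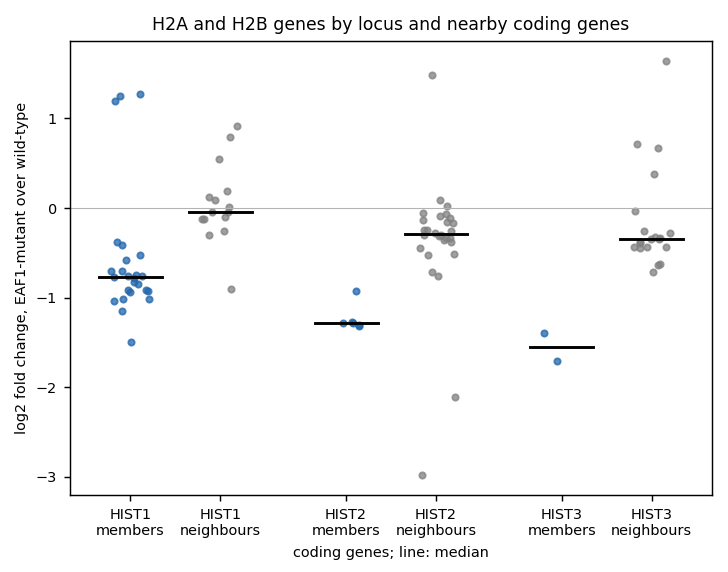
Log2 fold change (y axis) of tested coding H2A and H2B genes in blue and of the coding non-histone genes inside HIST1 or within 1 Mb of HIST2 and HIST3 in grey, with a line at each median. Member medians of -0.77, -1.28 and -1.55 stand beside neighbour medians of -0.04, -0.29 and -0.34.

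All HIST3 members fell. HIST3H2A (ENSG00000181218, chr1:228456979-228457873, - strand) had 72.4, 60.9 and 69.8 CPM in the wild-type libraries and 27.0, 26.5 and 24.0 in the EAF1-mutant libraries, a log2 fold change of -1.39 (SE 0.06, adjusted p = 1.82e-15, edgeR). HIST3H2BB (ENSG00000196890, chr1:228458107-228460470, + strand) had 124, 106 and 117 CPM in the wild-type libraries and 34.0, 36.3 and 36.3 in the EAF1-mutant libraries, a log2 fold change of -1.71 (SE 0.05, adjusted p = 5.84e-18, edgeR). The pseudogene HIST3H2BA (ENSG00000181201, chr1:228464103-228464626, - strand) had 5.85, 6.29 and 6.52 CPM in the wild-type libraries and 1.80, 1.78 and 1.93 in the EAF1-mutant libraries, a log2 fold change of -1.76 (SE 0.10, adjusted p = 9.00e-13, edgeR). None of the 3 overlapped between groups. Of the coding windows of HIST3H2BB, 28.7% were also found in HIST3H2BA, so the counts of both genes are uncertain. Whether reads of HIST3H2BB were counted for the pseudogene was not tested.

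Pseudogenes are reported apart. Of the 14, 6 were tested, of which 4 fell, HIST1H2APS5 rose and HIST2H2BD did neither. The 8 others stayed under 1 CPM in every library. HIST1H2APS5, named after its values were seen, was also under 1 CPM, and its call was lost with DESeq2 (adjusted p = 0.0304) and in 4 of 6 fits without 1 library.

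Head-to-head pairs allowed H2A and H2B to be compared at a shared promoter. A pair was an H2A and an H2B gene on opposite strands with 5′ ends at most 1000 bp apart in the ELL table, which gave 17 pairs, 11 of 2 coding genes and 6 with a pseudogene. In 11 pairs both genes had a mean of 1 CPM or more, and their 5′ ends lay 219 to 331 bp apart. Both genes fell in 8 of these, both rose in 1, 1 gene fell and the other did neither in 2, and none moved in opposite directions. At an unadjusted p under 0.05 by edgeR 1 pair did (HIST2H2AA3 and HIST2H2BD), and by DESeq2 calls 0 did.

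The sequence between the RefSeq starts of a pair is shown for 5 pairs that differ in their change: HIST1H2AE with HIST1H2BG (both rose), HIST1H2AD with HIST1H2BF (H2A fell, H2B did not pass), HIST1H2AJ with HIST1H2BM (levels far apart), HIST1H2AM with HIST1H2BO (both fell) and HIST3H2A with HIST3H2BB (the largest falls of these 5). They are on the + strand of GRCh38 at chr6:26216689-26216920, chr6:26199294-26199515, chr6:27814778-27815021, chr6:27893186-27893424 and chr1:228457874-228458102, in this order. By the RefSeq starts they lie between the genes of each pair, upstream of both starts. The first overlaps the 5′ end of the HIST1H2BG gene model, which reaches chr6:26216692. Capitals mark matches, on either strand, to 3 motifs: a TATA box spelled TATAAA, the pentamer CCAAT, or an octamer spelled ATTTGCAT.
HIST1H2AE/HIST1H2BG: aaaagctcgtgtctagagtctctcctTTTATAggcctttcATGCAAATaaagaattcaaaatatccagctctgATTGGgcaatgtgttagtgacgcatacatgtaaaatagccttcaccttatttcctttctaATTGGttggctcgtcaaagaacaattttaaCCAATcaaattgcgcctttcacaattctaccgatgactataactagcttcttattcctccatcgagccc
HIST1H2AD/HIST1H2BF: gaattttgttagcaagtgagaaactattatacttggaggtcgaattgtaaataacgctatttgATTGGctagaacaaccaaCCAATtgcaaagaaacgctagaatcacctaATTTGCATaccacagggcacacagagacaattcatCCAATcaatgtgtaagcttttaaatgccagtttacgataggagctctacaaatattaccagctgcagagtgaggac
HIST1H2AJ/HIST1H2BM: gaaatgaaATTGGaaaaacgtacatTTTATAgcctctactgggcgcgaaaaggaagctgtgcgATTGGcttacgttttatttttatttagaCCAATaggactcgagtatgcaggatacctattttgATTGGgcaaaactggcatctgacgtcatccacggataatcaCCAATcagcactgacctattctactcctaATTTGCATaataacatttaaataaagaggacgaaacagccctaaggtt
HIST1H2AM/HIST1H2BO: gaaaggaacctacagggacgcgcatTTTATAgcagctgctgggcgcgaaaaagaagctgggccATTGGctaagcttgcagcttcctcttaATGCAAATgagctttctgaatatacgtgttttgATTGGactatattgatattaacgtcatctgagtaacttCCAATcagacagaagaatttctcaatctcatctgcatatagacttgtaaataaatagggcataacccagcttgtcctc
HIST3H2A/HIST3H2BB: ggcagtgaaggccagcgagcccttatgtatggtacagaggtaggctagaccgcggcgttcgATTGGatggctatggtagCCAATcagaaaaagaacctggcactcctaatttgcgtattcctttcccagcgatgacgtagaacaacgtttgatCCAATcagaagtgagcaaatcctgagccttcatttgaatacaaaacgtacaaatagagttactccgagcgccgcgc

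The HIST3 pair and HIST1H2AD with HIST1H2BF had no TATAAA in this stretch, and the HIST3 pair had no ATTTGCAT, which says only that these letters are not in this window. RefSeq promoters of 300 bases, 250 before and 50 after the start, were matched for 34 of the 35 coding genes, all but HIST1H2AH, and windows of a pair overlap each other. On either strand, TATAAA was in 12 of 16 H2A and 12 of 18 H2B promoters, and in 12.1% of all 27305 promoters. CCAAT was in all 16 and all 18, and in 35.6% of all promoters. The octamer ATTTGCAT was in 11 of 16 and 14 of 18, and in 1.82% of all promoters. Read on the strand of the gene, the octamer was in 13 of 18 H2B promoters and in 1 of 16 H2A promoters, beside 0.872% of all.

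Within pairs, the fold changes of H2A and H2B were close in most cases. The median size of the difference was 0.14 on the log2 scale, and the H2A gene had the lower fold change in 8 of 11 pairs. Over these 11 pairs, which share libraries and in part sequence, Spearman's rho of the fold changes was 0.61, a description across genes. An exact two-sided permutation test of the log2 ratio of H2A to H2B over the 6 libraries cannot go below p = 0.10 with 3 against 3; 5 of the 11 pairs reached it, and the adjusted p over 17 pairs was 0.283 at the lowest.

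The largest difference was between HIST2H2AA3 and the pseudogene HIST2H2BD (ENSG00000220323, chr1:149843041-149843533, + strand). HIST2H2BD had 1.54, 1.19 and 1.35 CPM in the wild-type libraries and 1.71, 1.73 and 1.87 in the EAF1-mutant libraries. The log2 ratio of the pair was 8.77, 8.88 and 8.92 in the wild-type libraries and 7.28, 7.31 and 7.02 in the EAF1-mutant libraries. The ratio was lower in every EAF1-mutant library than in any wild-type library. The fold changes were -1.28 for HIST2H2AA3 and 0.38 for HIST2H2BD, a difference of -1.66 (exact permutation p = 0.10, adjusted p = 0.283).

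HIST1H2AD (ENSG00000196866, chr6:26198851-26199243, - strand) fell and its partner HIST1H2BF did not pass. HIST1H2AD had 141, 123 and 136 CPM in the wild-type libraries and 72.1, 72.8 and 63.5 in the EAF1-mutant libraries. The log2 ratio of the pair was 1.63, 1.63 and 0.99 in the wild-type libraries and 0.83, 0.97 and 0.64 in the EAF1-mutant libraries. Wild-type replicate 3 stood apart from the other wild-type libraries and next to EAF1-mutant replicate 2. The fold changes were -0.94 for HIST1H2AD and -0.38 for HIST1H2BF, a difference of -0.56 (exact permutation p = 0.10, adjusted p = 0.283).

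HIST1H2AH (ENSG00000274997, chr6:27147129-27147515, + strand) and HIST1H2BK both fell, by different amounts. HIST1H2AH had 309.6, 275 and 302 CPM in the wild-type libraries and 159, 149.9 and 159 in the EAF1-mutant libraries. The log2 ratio of the pair was -0.73, -0.71 and -0.76 in the wild-type libraries and -1.09, -1.20 and -1.11 in the EAF1-mutant libraries. The EAF1-mutant libraries were all below the wild-type ones and close to each other. The fold changes were -0.92 for HIST1H2AH and -0.52 for HIST1H2BK, a difference of -0.40 (exact permutation p = 0.10, adjusted p = 0.283). In HIST1H2BK the fold change was -0.41 with library totals alone, short of the fold threshold.

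The smallest differences were in HIST2H2AC with HIST2H2BE and in HIST1H2AI with HIST1H2BL. HIST2H2AC and HIST2H2BE had fold changes of -1.28 and -1.31, and their log2 ratio was -0.58, -0.52 and -0.61 in the wild-type libraries and -0.46, -0.53 and -0.64 in the EAF1-mutant libraries. HIST1H2AI (ENSG00000196747, chr6:27808199-27808701, + strand) had 227, 192 and 219.9 CPM in the wild-type libraries and 131, 133 and 116 in the EAF1-mutant libraries, a log2 fold change of -0.75. HIST1H2BL (ENSG00000185130, chr6:27807444-27807931, - strand) had 90.8, 81.2 and 88.2 CPM in the wild-type libraries and 54.0, 53.4 and 52.1 in the EAF1-mutant libraries, a log2 fold change of -0.71. The ratios of both pairs overlapped between groups. Of HIST1H2AI, 80.1% of the windows of 100 coding bases were shared with HIST1H2AJ, so its counts are uncertain.

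Of the 11 pairs at a mean of 1 CPM or more, HIST3H2A with HIST3H2BB was the one in which H2B had the lower fold change by most, with a difference of 0.31 (exact permutation p = 0.10). HIST1H2AJ and HIST1H2BM share a promoter but had wild-type means of 54.0 and 0.223 CPM. Per kb of coding sequence these were 141 and 0.590 CPM. HIST1H2AJ fell by 0.85 on the log2 scale and HIST1H2BM did not pass. Of the coding windows of HIST1H2AJ, 81.8% were shared with HIST1H2AI, so the counts of HIST1H2AJ and this contrast in level are uncertain. By the starts of GENCODE v44, HIST1H2AK and HIST1H2BN also form a pair, 170 bp apart and added after seeing the data, with a difference of -0.31.

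**Figure D4:**
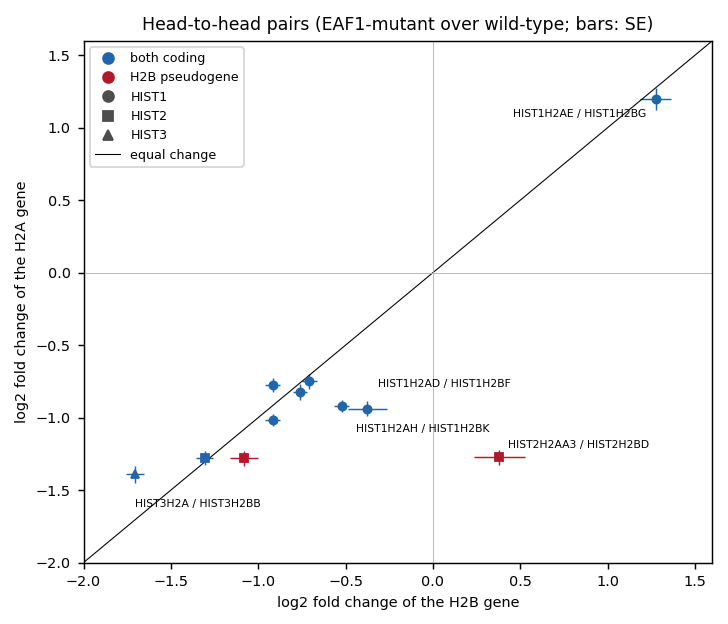
Log2 fold change of the H2A gene (y axis) against that of the H2B gene (x axis) in the 11 pairs with both genes at a mean of 1 CPM or more; bars are SE from edgeR and the line marks equal change. HIST1H2AE with HIST1H2BG stands alone at the upper right, and HIST2H2AA3 with the pseudogene HIST2H2BD is farthest from the line.

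ELL signal was measured in wild-type cells only. The authors deposited CPM-scaled coverage summed over each gene model; the ratio of each ELL replicate to the 1 input is given, without an SD or a test. Coding H2A genes had median ratios of 2.53 and 2.51 in replicates 1 and 2, and coding H2B genes had 1.29 and 1.25. Ratios were over 2 in both replicates for 8 of 17 H2A and 2 of 18 H2B genes, beside 7 of 15 H3, 7 of 15 H4 and 2 of 6 H1 genes. Model length differed between the classes, since 11 of 18 H2B models exceed 1 kb. Among models of at most 1 kb the medians were 2.53 and 2.51 for 15 H2A genes and 1.77 and 0.568 for 7 H2B genes. The H2B value thus varied between replicates, and 4 of these 7 H2B genes had a mean under 1 CPM, beside 1 of the 15 H2A genes. For coding genes at a mean of 10 CPM or more the medians were 2.55 and 2.90 for H2A and 1.73 and 1.44 for H2B.

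HIST1H2BK had the highest ratio, 9.33 in replicate 1 and 9.12 in replicate 2. HIST1H2AL (ENSG00000276903, chr6:27865355-27865747, + strand) followed with 5.33 in replicate 1 and 8.35 in replicate 2, over a low input signal of 3.94. HIST1H2AM (ENSG00000278677, chr6:27892757-27893149, - strand) had 5.11 in replicate 1 and 3.83 in replicate 2. HIST1H2AL and HIST1H2AM both fell in RNA. HIST1H2AL had 74.6, 66.5 and 80.8 CPM in the wild-type libraries and 34.3, 33.5 and 32.7 in the EAF1-mutant libraries, a log2 fold change of -1.14. HIST1H2AM had 189, 175 and 189.9 CPM in the wild-type libraries and 89.6, 89.9 and 94.2 in the EAF1-mutant libraries, a log2 fold change of -1.02. Neither overlapped between groups.

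Among coding genes the lowest mean ratios were those of 3 H2B genes with little RNA. HIST1H2BI had 0.185 in replicate 1 and 0.407 in replicate 2. HIST1H2BG had 0.412 in replicate 1 and 0.626 in replicate 2. HIST1H2BA (ENSG00000146047, chr6:25726777-25727292, + strand) had 0.948 in replicate 1 and 0.518 in replicate 2, with RNA of 0.0177, 0 and 0 CPM in the wild-type libraries and 0.0168, 0 and 0.0290 in the EAF1-mutant libraries. All 3 had less ELL signal than input in both replicates. HIST1H2AE was listed at 0 in replicate 1 and had a ratio of 1.64 in replicate 2.

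Across genes, which share the input and are not independent replicates, Spearman's rho between the ELL replicates was 0.56 over 35 coding genes. Over the 22 models of at most 1 kb the ratio had a rho of 0.70 with wild-type CPM, and over the 20 tested ones a rho of -0.09 with the log2 fold change. With gene model length rho was -0.23 over 35 genes. By cluster, medians in replicates 1 and 2 were 1.77 and 1.49 for HIST1, 1.44 and 2.12 for HIST2, and 1.62 and 1.27 for HIST3 coding genes, and the order of the clusters differed between replicates.

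**Figure D5:**
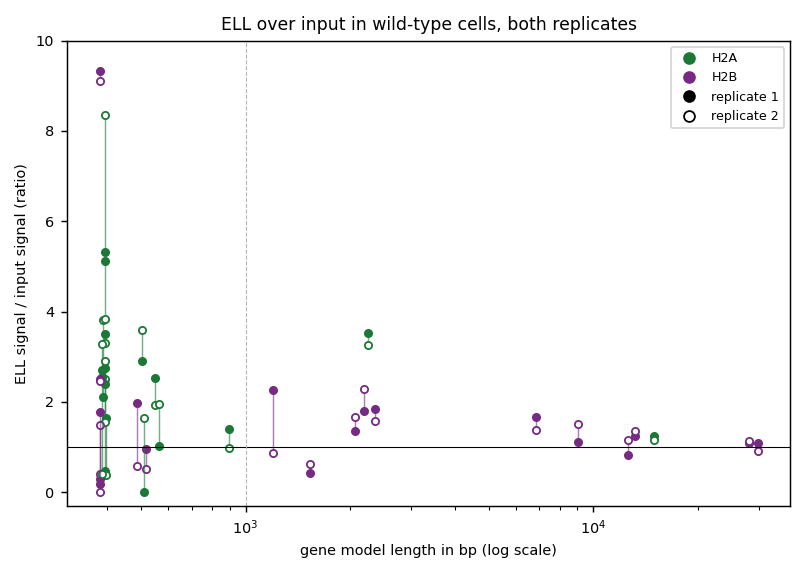
Ratio of ELL signal to input (y axis) against gene model length in bp (x axis, log scale) for coding genes, with filled and open points for replicates 1 and 2 joined by a line, a dashed line at 1000 bp and a solid line at a ratio of 1. The 4 highest mean ratios, up to HIST1H2BK with 9.33 in replicate 1, are among short models; HIST1H2AG, with a model of 2250 bp, has 3.52 and 3.25, and models over 5 kb lie between 0.830 and 1.66.

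Genes around histone RNA were counted with lists. Of 19 histone mRNA factors, among them SLBP and the transcription coactivator NPAT, 0 fell and E2F1 rose. Of all tested genes 9.36% fell and 11.0% rose. The median log2 fold change of the factors was 0.01. At an unadjusted p under 0.05 edgeR had 7 of them lower and 7 higher, beside 27.8% and 28.5% of all tested genes. DESeq2 called 0 of them lower and 1 higher, beside 2388 lower and 2499 higher over all tested genes. SLBP had a log2 fold change of 0.03 and NPAT of 0.15, and neither passed. The lowest values of the list were -0.42 for CASP8AP2 and -0.40 for RNU7-1, short of the fold threshold. The highest were 0.56 for E2F1 and 0.31 for ZNF473. Of 12 genes on a list of H2A and H2B variants 8 were tested. Whether each of them is replication-independent was not checked. Of these 0 fell and H2BFM, at a mean under 1 CPM, rose, beside 9.36% and 11.0% of all tested genes. The median was -0.09, and 5 were lower and 2 higher at an unadjusted p under 0.05. DESeq2 called 1 of these genes lower and 0 higher. The gene called lower was H2BFS, with a log2 fold change of -0.49 by edgeR. Its newer symbol is H2BC12L, and that of HIST1H2BK is H2BC12. H2AFZ had a log2 fold change of -0.43 and did not pass the fold threshold.

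Of 13 chaperones of H2A and H2B, 12 were tested. SUPT16H (log2 fold change -0.73), NPM1 (-0.67) and ANP32E (-0.71) fell, NAP1L3 (0.68) rose, and the median was -0.30, beside 9.36% lower and 11.0% higher of all tested genes; at an unadjusted p under 0.05, 10 were lower and 1 higher, beside 27.8% and 28.5%, and DESeq2 called 3 lower and 1 higher. Of 22 S phase genes PCNA (-0.76) fell, E2F1 (0.56) rose, and the median was -0.0047; 8 were lower and 7 higher at an unadjusted p under 0.05. Of 15 G2/M genes 0 fell and 0 rose by edgeR, with a median of -0.12; 11 were lower and 1 higher at an unadjusted p under 0.05, and DESeq2 called KIF11 lower. The share of cells in S phase was not measured here.

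Markers of the line and of other cell types were checked. Of 8 HEK293T genes VIM and NEFM fell and KRT8 and KRT18 rose, beside 9.36% lower and 11.0% higher of all tested genes. The summed level of the 8 was 555, 564 and 584 CPM in the wild-type libraries and 403, 402 and 412 in the EAF1-mutant libraries. VIM was the most abundant, with a wild-type mean of 380.5 CPM. PTPRC, CD3E, ALB and HBB, which mark other cell types, were under 1 CPM in every library, and COL3A1 fell from a mean of 2.10 to 0.469 CPM. The summed level of these 5 lay between 1.94 and 2.35 CPM in the wild-type libraries and between 0.453 and 0.827 in the EAF1-mutant libraries. Their part in the histone results was not tested.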

How the data were processed

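The RNA-seq libraries, 3 of wild-type and 3 of EAF1-mutant HEK293T cells, were depleted of ribosomal RNA; the ELL ChIP-seq had 2 replicates and 1 input, all wild-type. Groups follow the labels. Other assays of the series (nascent RNA, chromosome contacts and proximity labelling) were not analysed here. For RNA, the authors aligned reads to GRCh38 by HISAT2, used Rsubread with an Ensembl annotation, and deposited 1 raw count per gene and library. How strand and multi-mapped reads were handled is not given in the sources used here, and counts of near-identical or overlapping genes are uncertain for this reason. For ELL, the authors aligned by Bowtie2 and deposited a signal per gene, the sum of CPM-scaled coverage along its model. The submitters' processing notes also name HISAT2 2.3.4.1, Bowtie2 2.3.5.1, SAMtools 1.7, bedtools 2.29.2 and DESeq2 1.28.1.

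The deposited counts were fitted in R 4.3.3 with edgeR 4.0.16: TMM normalization, filterByExpr (28025 genes tested), and the quasi-likelihood test, with p-values adjusted by Benjamini-Hochberg over all tested genes. Log2 CPM used a prior count of 2. A call needed an adjusted p below 0.01 together with a log2 fold change beyond 0.5 in either direction. The fit was tested on simulated data. Python 3.11.15 gave the other values. Members of one class share libraries and are not replicates, so classes, clusters and lists were described by counts and medians. Library totals of 52541541 to 66611451 counts allowed genes under 1 CPM to be tested. Replicates differed by more than sampling noise in every group, with a chi-square per degree of freedom of 2.64 or more.

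Levels per kb were planned on gene model length; coding length from GENCODE v44 was used where genes are compared, an alternative chosen after seeing the data. Promoters came from RefSeq (GRCh38.p14), and stem-loops were searched in the 100 bases after the stop codon. Genes given in every library were the 3 H2A and 3 H2B coding genes with the highest wild-type CPM, the 3 largest falls and rises at a mean of 1 CPM or more, the 3 pairs with the largest and 2 with the smallest difference, the 3 highest and 3 lowest ELL ratios, all HIST3 members, HIST2H2AA3 and HIST2H2AA4, and HIST1H2BK, HIST2H2AB, HIST2H2AC, HIST1H2BC and HIST1H2AL, which the study used or shows. Only 2 members rose at that level. The lists were histone mRNA factors, H2A and H2B variants, H2A and H2B chaperones, S phase genes, G2/M genes, HEK293T markers and markers of other cell types. The members and lists were chosen with earlier results of these data known. Alternatives were other normalizations, DESeq2 1.42.0, other filters and thresholds, a replicate block, each library left out, shorter gene models, other pair definitions and single ELL replicates.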

Additional observations from a re-analysis of the deposited data

How the results depend on the processing

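The fall of most H2A and H2B genes kept its direction under every setting run, while counts and sizes moved. With a log2 fold change over 1 in size, 8 H2A and 4 H2B coding genes fell, and 698 of all tested genes fell and 1452 rose; at an adjusted p under 0.05 with no minimum fold, 7170 fell and 7250 rose. With gene models of at most 1 kb, 4 H2B genes fell and 1 rose, out of fewer genes. H2B genes that rose numbered 1 with DESeq2 and with a mean of at least 1 CPM, and 1 to 2 without 1 library. With no filter on low counts edgeR did not use the spread of single genes (its prior degrees of freedom were infinite), so its calls cannot be read like the others; HIST1H2BH, whose groups overlap, was called there.

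With library totals alone the medians were -0.86 (H2A), -0.64 (H2B), -0.66 (HIST1), -1.17 (HIST2) and -1.43 (HIST3). The H2B median was -0.71 when only genes at a mean of at least 10 CPM were fitted. Coding H2B genes at that level had a median of -0.77 in the main fit. In the main fit the H2B median was -0.61 with models of at most 1 kb and -0.65 for genes with no shared coding window. H2A minus H2B was then -0.40 with short models and -0.29 without shared windows, the last chosen after seeing the data. The 6 short H2B models tested included HIST1H2BB, HIST1H2BI and HIST1H2BM, all under 1 CPM. Without 1 library the medians ran from -1.04 to -0.95 (H2A), -0.81 to -0.71 (H2B), -1.36 to -1.23 (HIST2) and -1.63 to -1.51 (HIST3), and the median size of the pair difference from 0.10 to 0.15. The ratio of summed H2A to H2B was 1.04 in wild-type cells with pseudogenes and also 1.04 per kb of coding sequence. It was 3.65 in wild-type and 2.61 in EAF1-mutant cells with models of at most 1 kb, and 2.54 and 1.93 per kb of gene model.

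HIST2H2AC minus HIST2H2BE turned to -0.0153 without EAF1-mutant replicate 1 (from -0.0153 to 0.0716 without 1 library), and HIST1H2AI minus HIST1H2BL to 0.00190 without EAF1-mutant replicate 3 (from -0.0735 to 0.00190); both differences are near 0. Prior counts of 0.5 and 5, applied to the log2 CPM ratio, turned no pair. The mean of both ELL replicates gave medians of 2.23 (H2A) and 1.28 (H2B), a difference of 0.95. Replicate 1 alone gave 2.53 for H2A and a difference of 1.24. Replicate 2 alone gave 2.51 for H2A, 1.25 for H2B and a difference of 1.26. ELL minus input per kb, in another unit, kept the direction. The cause of these differences was not tested. Coding length from RefSeq proteins was not run, since no protein table was used here.

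By the labels, same-numbered libraries share only a number. Correlations of their deviations were -0.01, -0.02 and 0.01, and not every library correlated best with its own number. With 3 libraries per group these values cannot show whether same-numbered libraries were handled together. With the replicate number as a block, 15 H2A genes fell and 1 rose, 12 H2B genes fell and 2 rose, and the medians were -0.97 and -0.73; over all tested genes 2631 fell and 3055 rose. Of 263 comparisons of named genes over settings, 255 kept their side of the threshold, 7 lost it, 1 gained it and 0 turned. These covered the 22 tested genes named by the rules above. HIST1H2BB, HIST1H2BE, HIST1H2BH and HIST1H2APS5, named after their values were seen, were not among them, and their calls changed under some settings.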
